A study of Mus musculus with 9 samples.

Results

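The transmitter release machinery of 3 genetically marked populations of young cortical interneurons is described here through 73 genes. They were chosen by symbol alone, out of 23319 gene symbols counted in each library, as the numbered synaptotagmins and syntaxins, synaptobrevins (Vamp1 to Vamp8), Snap25, complexins, RIM and Munc13 proteins, Rab3 isoforms, SV2 proteins, syntaxin-binding proteins, synaptoporin, synaptogyrins, Syn2, Syn3, Napb, Bsn and Pclo. Every library held RNA from 150 green fluorescent cells, picked by hand after layer 2/3 strips of medial prefrontal cortex and of the anterior cingulate area had been dissociated, at postnatal day 5. All mice carried the Cre-dependent fluorescent reporter Ai47, combined with VIP-Cre, SOM-Cre or Nkx2.1-CreER, and 3 libraries were made per line. The Nkx2.1-CreER mice alone received tamoxifen, on embryonic day 17, and the extraction protocol calls their cells ChC-GFP, in a study whose title is about the chandelier cell, an interneuron that innervates pyramidal neurons at the axon initial segment. The groups are called Nkx2.1, SOM and VIP, and driver and tamoxifen cannot be told apart in them. In all 3 lines the reporter stays on once Cre has acted, so it marks a cell's history and not its present expression of the driver gene.

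Calcium-triggered release joins a vesicle to the plasma membrane through the SNARE proteins synaptobrevin on the vesicle and syntaxin and SNAP-25 on the target membrane. RIM and Munc13 proteins dock and prime vesicles at the active zone, complexins hold and promote fusion, and synaptotagmins sense calcium. Most of these proteins come as several isoforms, and interneuron types are known to differ in which isoform they use.

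The mean Snap25 level was highest in the Nkx2.1 libraries, while those of the synaptoporin gene Synpr, the synaptogyrin gene Syngr3 and the priming factor Unc13a were lowest there. VIP libraries held the most Vamp2, Cplx2 and Synpr, and SOM libraries the most Syngr3 and Stxbp6. In each of these cases the libraries of the named line did not overlap those of the other 2 lines, but no gene of the machinery passed the test across all genes described below.

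Each library had between 6484488 and 12465997 reads in genes. Levels are given as CPM, a gene's reads relative to the TMM-scaled size of its library. A count of 3 reads, used as the floor, came to 0.246 to 0.444 CPM, and smaller values are printed but lie below that floor. The cells' labels were checked against their markers: 9 GABAergic genes summed to 3214 to 7010 CPM over the 9 libraries, 7 excitatory genes to at most 156 CPM, 6 microglial genes to at most 17.8 CPM and 4 endothelial genes to at most 0.444 CPM. Sst stood at 1445 to 2163 CPM in the SOM libraries and Vip at 410 to 799 CPM in the VIP libraries. The Nkx2-1 gene itself held 24 reads over all 9 libraries. The sum of 7 astrocyte genes was highest in Nkx2.1 replicates 1 and 2. It came to 3533, 619.6 and 253 CPM in Nkx2.1 replicates 1 to 3, against 63.9 to 211 CPM in the SOM and 262 to 412 CPM in the VIP libraries. In Nkx2.1 replicate 1 these genes included Slc1a3 at 1649 CPM, Fabp7 at 1240 CPM and Aqp4 at 181 CPM, and Aqp4 had no read in the other 2 Nkx2.1 libraries. In Nkx2.1 replicate 2 the sum was almost all Slc1a3, at 293 CPM, and Fabp7, at 326 CPM. Aldh1l1, Aqp4, Gja1 and Aldoc had no read there. Slc1a2 went the other way, at 117, 0.592 and 81.8 CPM in the Nkx2.1 and 372, 215 and 229 CPM in the VIP libraries. The 7 oligodendrocyte lineage genes summed to 259 to 302 CPM in the Nkx2.1, 96.6 to 194 CPM in the SOM and 1.72 to 98.3 CPM in the VIP libraries. The part of these cells in the results below was not tested. A group's values without Nkx2.1 replicate 1 are given where they change a call.

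The 73 genes took 1.04% to 1.18% of the reads in genes in the Nkx2.1 libraries, 1.46% to 1.58% in the SOM libraries and 1.39% to 1.59% in the VIP libraries. As summed CPM, they came to 14162, 12422 and 10222 in Nkx2.1 replicates 1 to 3, 14337 to 15382 in the SOM and 13049 to 14719 in the VIP libraries. The Nkx2.1 range thus lay below the SOM range on both scales, and below the VIP range only as a share of reads. In these bulk libraries, fewer cells of a type and less RNA per cell cannot be told apart. A read was found for 49, 41 and 44 of the 73 genes in Nkx2.1 replicates 1 to 3, while the SOM libraries had reads for 55, 55 and 56 and the VIP libraries for 48, 57 and 53. Over all 23319 symbols, the Nkx2.1 libraries likewise had reads for fewer genes than the SOM libraries. These numbered 10576, 8180 and 9484 in the Nkx2.1, 10923, 11081 and 11490 in the SOM and 9672, 10924 and 10927 in the VIP libraries.

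Expression was strong enough to test for 56 of the 73 genes, alongside 10728 genes in all, with edgeR's quasi-likelihood test and an adjusted p under 0.05 as the threshold. No member passed in any of the 3 comparisons, nor in the test of any difference among the lines. Over all genes 10 passed for Nkx2.1 against SOM, 0.0932% of those tested, 33 for Nkx2.1 against VIP, 0.308%, 8 for SOM against VIP, 0.0746%, and 36, or 0.336%, for any difference. At an unadjusted p under 0.05 edgeR gave 11 members (11.3% of all genes tested), 15 (15.2%) and 5 (6.99%) in the 3 comparisons in the same order, and DESeq2, run as another test, called 4 (7.16%), 9 (11.8%) and 1 (3.56%). DESeq2 gave no adjusted p in any of the 3 comparisons for 5 of the 56 members, which were Synpr, Rab3a, Stxbp6, Stxbp2 and Syt14, so their absence from its calls is not a failed test. The smallest edgeR adjusted p among the members was 0.0758 for Syngr3 in Nkx2.1 against SOM, 0.0871 for Vamp2 in Nkx2.1 against VIP and 0.424 for Cplx2 in SOM against VIP. The labels do not tell whether the 3 libraries of a line came from separate animals, so these p-values measure the spread between the samples, which may be technical. What follows is therefore a description of levels, library by library, and differences between means are given without a call unless one is named.

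SNARE proteins come first, since they carry out fusion. Snap25, the target-membrane SNARE, stood at 1673, 1995 and 1624 CPM in Nkx2.1 replicates 1 to 3, 823, 958 and 1108 CPM in the SOM and 1105, 802 and 668 CPM in the VIP libraries. Every Nkx2.1 library lay above all 6 others. The Nkx2.1 mean, 1764 ± 202 CPM (SD, n = 3), was 1.83-fold the SOM mean and 2.05-fold the VIP mean, with edgeR log2 differences of 0.87 ± 0.26 (SE, adjusted p = 0.317) and 1.04 ± 0.26 (SE, adjusted p = 0.156).

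Vamp2, synaptobrevin 2 of the vesicle membrane, ran the other way across the lines. Its levels were 129, 80.9 and 122 CPM in the Nkx2.1, 488, 152 and 139 CPM in the SOM and 1001, 996 and 588 CPM in the VIP libraries. Neither the Nkx2.1 nor the VIP libraries overlapped any other group. The VIP mean of 862 ± 237 CPM (SD, n = 3) was 7.79-fold the Nkx2.1 mean and 3.32-fold the SOM mean. The edgeR log2 difference was -2.96 ± 0.57 (SE, adjusted p = 0.0871) for Nkx2.1 against VIP and -1.73 ± 0.55 (SE, adjusted p = 0.460) for SOM against VIP. Without SOM replicate 1, whose level was 488 CPM, the log2 difference of Nkx2.1 against SOM was -0.39 in place of -1.23. In that fit the edgeR adjusted p of Nkx2.1 against VIP was 0.0443. Over all alternatives the adjusted p ranged from 7.93e-05, which was that of DESeq2, to 0.256. Levels of different isoforms were compared per kilobase of exon, with exons of all annotated transcripts merged. On that scale Vamp2 made up 51.3%, 16.2% and 42.7% of the tested Vamp genes in the Nkx2.1 group. The SOM libraries had 76.4%, 54.1% and 48.2%, and the VIP libraries 94.0%, 93.1% and 83.7%. Vamp4, a SNARE of the trans-Golgi network and endosomes, held most of the remainder in 7 of the 9 libraries, with 83.8% in Nkx2.1 replicate 2. Vamp1, the other synaptic synaptobrevin, stayed at or under 2.20% of this sum in every library and at or under 34.5 CPM.

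Stx1a, a syntaxin of the plasma membrane and partner of SNAP-25, stood at 93.1, 198 and 199 CPM in the Nkx2.1, 272, 152 and 163 CPM in the SOM and 46.1, 113 and 137 CPM in the VIP libraries, where only the SOM and VIP libraries did not overlap.

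Most other syntaxins serve inner membranes, and several of them stood apart between lines. Stx5a, a Golgi syntaxin, was at 309.9, 422 and 343 CPM in the Nkx2.1, 59.9, 77.4 and 163 CPM in the SOM and 244, 37.4 and 132 CPM in the VIP libraries. The Nkx2.1 libraries were above all others, with edgeR log2 differences of 1.84 ± 0.72 (SE, adjusted p = 0.384) from SOM and 1.38 ± 0.71 (SE, adjusted p = 0.406) from VIP. Stx16, which acts between endosomes and the trans-Golgi network, was at 116, 132 and 22.3 CPM, 18.8, 21.2 and 83.9 CPM and 7.24, 0.103 and 5.08 CPM in the Nkx2.1, SOM and VIP libraries. All VIP libraries thus lay below the other 6, and the Nkx2.1 mean was 21.7-fold the VIP mean (log2 4.44 ± 1.69 SE, edgeR adjusted p = 0.269). The endosomal syntaxin Stx8 separated the Nkx2.1 libraries, at 55.9, 56.1 and 24.3 CPM, from the SOM libraries, at 11.0, 8.58 and 16.3 CPM, while VIP values of 0, 29.6 and 25.4 CPM reached into the Nkx2.1 range. Its difference from SOM was about as large as its error, at log2 1.92 ± 1.88 (SE, edgeR adjusted p = 0.861). Stx7, another endosomal syntaxin, stood at 167, 142 and 490.1 CPM in the Nkx2.1 and 887, 528 and 717 CPM in the VIP libraries, without overlap. Stx2, a syntaxin of the plasma membrane, had no read in any Nkx2.1 library, against 18.4, 1.04 and 9.03 CPM in the SOM and 0, 16.9 and 4.34 CPM in the VIP libraries. Pooled over libraries, with 3 reads over the group as the floor, Stx2 was at least 113-fold lower in Nkx2.1 than in SOM and at least 78.8-fold lower than in VIP, which covers counting error only. SOM replicate 1 held 173 of the 259 SOM reads and VIP replicate 2 held 164 of the 217 VIP reads. Without the former library the bound against SOM was 60.5, and without the latter the bound against VIP was 28.4.

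Stxbp6, or amisyn, which binds the SNARE complex in place of synaptobrevin, stood at 184, 196 and 153 CPM in the SOM libraries, above every Nkx2.1 value (4.54, 0 and 28.2 CPM) and every VIP value (0, 58.0 and 0 CPM). The large standard errors left it far from the threshold, at log2 -4.02 ± 2.69 (SE, edgeR adjusted p = 0.688) for Nkx2.1 against SOM and 3.20 ± 2.59 (SE, adjusted p = 1.00) for SOM against VIP. Stxbp5, or tomosyn, a SNARE-binding inhibitor of release, ranged from 46.4 to 516 CPM with overlap between all groups. Napb, a SNAP protein that helps take SNARE complexes apart after fusion, was at 5.68, 411 and 189.7 CPM in the Nkx2.1 libraries, a wider spread than the 649, 346 and 329 CPM of SOM and the 104, 227 and 186 CPM of VIP.

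**Figure D1:**
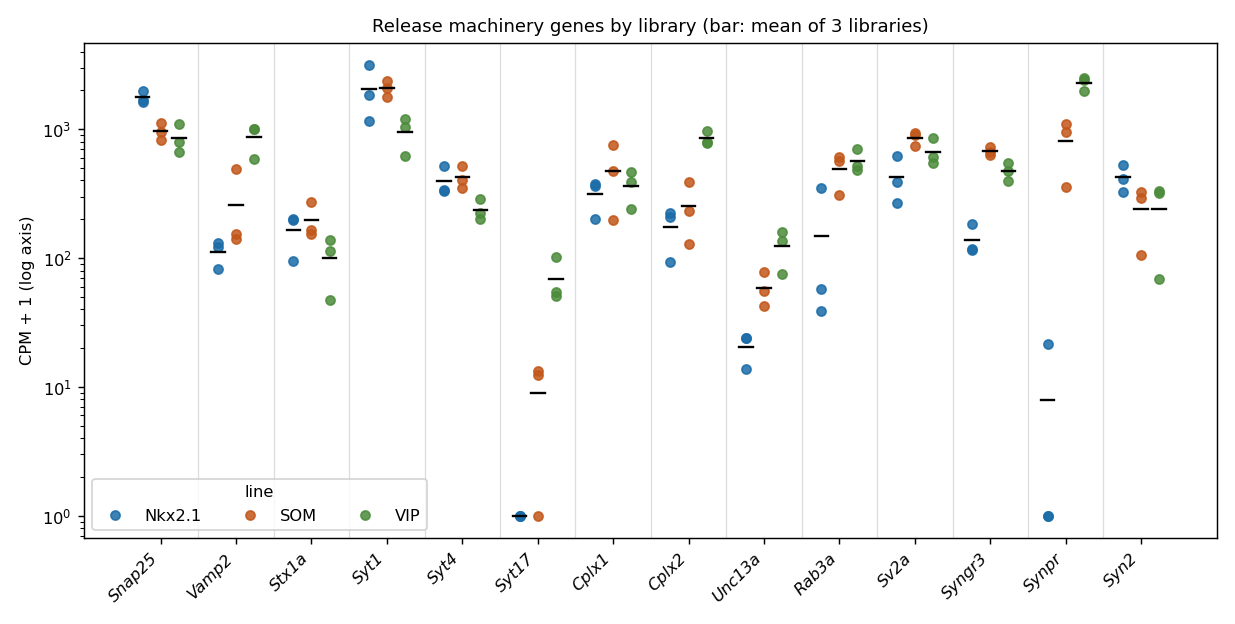
CPM + 1 on a log axis for 14 release genes, 1 point per library coloured by line, with a bar at the mean of the 3 libraries. Snap25 is highest in the 3 Nkx2.1 libraries, Vamp2 and Cplx2 are highest in the 3 VIP libraries, and Syngr3 and Synpr are lowest in the 3 Nkx2.1 libraries.

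Complexins, which clamp and then speed fusion, took different isoform shares across lines. Cplx2 was at 207, 93.0 and 223 CPM in the Nkx2.1, 391, 233 and 127 CPM in the SOM and 973, 787 and 799.8 CPM in the VIP libraries. The VIP libraries lay above the other 6, and their mean of 853 ± 104 CPM (SD, n = 3) was 4.90-fold that of Nkx2.1 and 3.41-fold that of SOM. The edgeR log2 differences were -2.29 ± 0.51 (SE, adjusted p = 0.127) and -1.77 ± 0.50 (SE, adjusted p = 0.424). Cplx1 stood at 363, 371 and 201 CPM, 751, 475 and 197 CPM and 386, 464 and 237 CPM in the Nkx2.1, SOM and VIP libraries, and its groups overlapped. Per kilobase, Cplx2 made up 52.9%, 43.0% and 59.9% of the 2 isoforms in the VIP libraries, against 20.2%, 10.0% and 33.0% in the Nkx2.1 and 18.8%, 17.9% and 22.3% in the SOM libraries. The VIP shares do not overlap those of either other line.

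**Figure D2:**
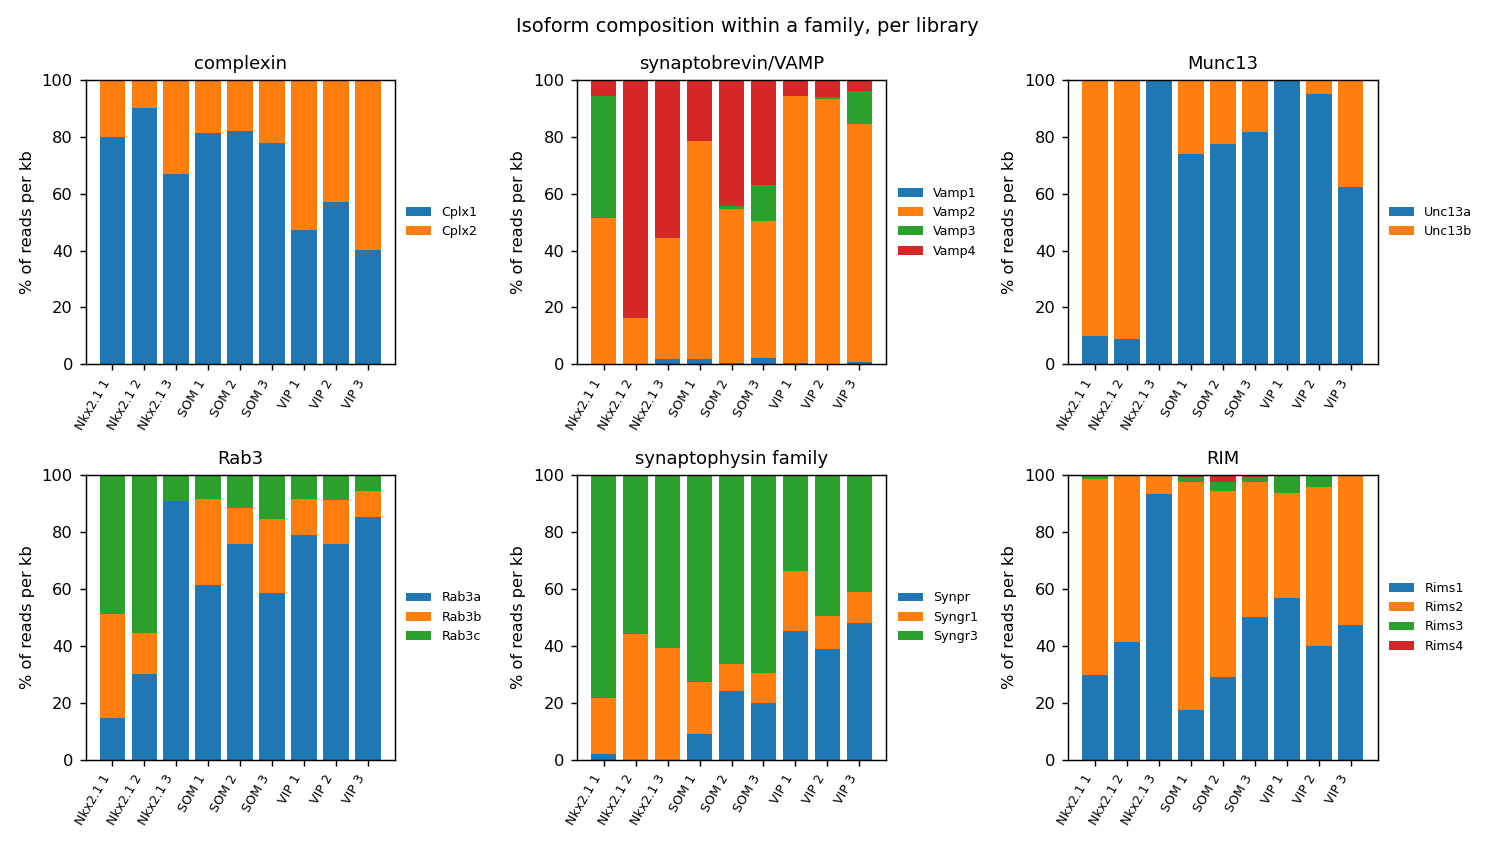
Percent of the summed reads per kilobase that each isoform took within 6 families, 1 stacked bar per library, with Synpr, Syngr1 and Syngr3 as the synaptophysin family. Cplx2 takes 43.0% to 59.9% of the complexin bar in VIP libraries and 10.0% to 33.0% elsewhere, while the Rab3, RIM and Munc13 bars of Nkx2.1 replicate 3 differ from those of replicates 1 and 2.

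Among the vesicle membrane proteins related to synaptophysin, levels were lowest in the Nkx2.1 libraries. Synpr, synaptoporin, a relative of synaptophysin found at subsets of synapses, was at 20.7, 0 and 0 CPM in the Nkx2.1, 358, 1096 and 958 CPM in the SOM and 2396, 1966 and 2500.4 CPM in the VIP libraries. The 3 groups do not overlap, and the VIP libraries lay 2.85-fold above SOM by the means, where their log2 difference was -1.51 ± 1.55 (SE, SOM minus VIP, edgeR adjusted p = 1.00). The means were 117-fold higher in SOM and 332-fold higher in VIP than in Nkx2.1, with log2 differences of -6.87 ± 1.97 (SE, edgeR adjusted p = 0.312) and -8.38 ± 2.1 (SE, adjusted p = 0.151). All Nkx2.1 reads of Synpr came from replicate 1. Without it no Nkx2.1 read was left, so Synpr stayed in that fit only through reads of the other lines. In that fit the edgeR adjusted p of Synpr was 0.00245 against SOM and 0.000761 against VIP. Over the alternatives it ranged from 0.00245 to 0.612 against SOM and from 0.000761 to 0.310 against VIP. Synpr was the most abundant member in each VIP library as CPM.

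Syngr3, synaptogyrin 3, stood at 184, 116 and 115 CPM in the Nkx2.1, 626, 662 and 731 CPM in the SOM and 393, 546 and 469 CPM in the VIP libraries, 3 ranges without overlap. Its SOM mean of 673 ± 53.2 CPM (SD, n = 3) was 4.87-fold and its VIP mean of 469 ± 76.5 CPM 3.40-fold the Nkx2.1 mean. The edgeR log2 difference was -2.28 ± 0.37 (SE, adjusted p = 0.0758) against SOM and -1.76 ± 0.37 (SE, adjusted p = 0.108) against VIP. Against SOM the edgeR adjusted p was 0.0326 without Nkx2.1 replicate 1. Over all alternatives the adjusted p ranged from 1.13e-06, which was that of DESeq2, to 0.330. Syngr1 was at 108, 212 and 171 CPM in the Nkx2.1, 364, 222 and 251 CPM in the SOM and 562, 297 and 282 CPM in the VIP libraries, again with every Nkx2.1 library lowest. Per kilobase, Synpr took 45.3%, 39.0% and 48.2% of the sum of Synpr, Syngr1 and Syngr3 in the VIP libraries, 9.12%, 24.1% and 20.0% in the SOM, and 1.93%, 0% and 0% in the Nkx2.1 libraries.

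SV2 proteins, which are transporter-like vesicle proteins needed for normal release, were nearly all Sv2a. Sv2a made up 92.8% to 99.7% of the 3 isoforms per kilobase in every library. It was at 388, 622 and 268 CPM in the Nkx2.1 and 907, 739 and 936 CPM in the SOM libraries, without overlap, and at 852, 544 and 603 CPM in the VIP libraries. Sv2b had no read in the Nkx2.1 libraries, 55.3, 4.59 and 8.92 CPM in the SOM and 0, 67.1 and 0 CPM in the VIP libraries. The pooled floor put it at least 276-fold lower in Nkx2.1 than in SOM and at least 236-fold lower than in VIP, but VIP replicate 2 alone held the VIP reads. Without SOM replicate 1, which held 521 of the 630 SOM reads, the bound against SOM was 76.6. Without VIP replicate 3 the bound against VIP was 397, and without VIP replicate 2 neither line had a read. Sv2c stood at 19.1, 19.3 and 43.6 CPM in the Nkx2.1, 14.9, 12.7 and 24.6 CPM in the SOM and 10.4, 6.40 and 4.26 CPM in the VIP libraries, with all VIP values lowest. The Nkx2.1 minus VIP difference of Sv2c was log2 1.96 ± 1.45 (SE, edgeR adjusted p = 0.615).

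Of 17 synaptotagmins, 12 were tested. Syt1, the main fast calcium sensor of forebrain neurons, stood at 3139.7, 1830.4 and 1161 CPM in the Nkx2.1, 1788, 2365 and 2093 CPM in the SOM and 615, 1202 and 1042 CPM in the VIP libraries. The SOM libraries lay above the VIP libraries, at log2 1.13 ± 0.37 (SE, edgeR adjusted p = 0.466), and the Nkx2.1 and VIP libraries overlapped, at log2 1.10 ± 0.37 (SE, adjusted p = 0.229). Syt2, the fast sensor of many mature parvalbumin interneurons, had 70 reads in all, 1 in VIP replicate 2 and 69 in VIP replicate 3, and none in the Nkx2.1 or SOM libraries. Syt4, which lacks normal calcium binding, was at 522, 332 and 335 CPM in the Nkx2.1, 515, 351 and 403 CPM in the SOM and 222, 289 and 199 CPM in the VIP libraries, with all VIP values lowest. Syt11, its close relative, ranged from 327 to 1056 CPM, and SOM lay above VIP without overlap. Syt7, a high-affinity sensor for slower phases of release, stood between 36.9 and 125 CPM with overlap of all groups.

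Syt17 had no read in the Nkx2.1 libraries, 12.3, 0 and 11.4 CPM in the SOM and 53.4, 100.2 and 50.1 CPM in the VIP libraries. The VIP libraries were apart from both other lines, and the pooled floor put Syt17 at least 732-fold lower in Nkx2.1 than in VIP. Between SOM and VIP its log2 difference was -3.10 ± 2.08 (SE, edgeR adjusted p = 1.00). Syt14 gave the opposite picture, with 6.26, 6.51 and 34.3 CPM in the SOM libraries and 0, 0 and 0.164 CPM in the VIP libraries. Its 403 pooled SOM reads against 2 VIP reads gave a ratio of 243, with a 95% counting interval of 66.8 to 2012, and the Nkx2.1 libraries stood at 0, 0.0846 and 14.7 CPM. SOM replicate 3 held 300 of those SOM reads, and without it the ratio was 95.6, with an interval of 25.8 to 800.0. Syt5 was at 16.3, 93.5 and 135 CPM in the Nkx2.1 and 376, 419.6 and 264 CPM in the SOM libraries, without overlap, and at 104, 274 and 95.6 CPM in the VIP libraries.

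At the active zone, Unc13a, or Munc13-1, the main priming factor of cortical synapses, was lowest in the Nkx2.1 libraries. It stood at 12.7, 22.8 and 22.9 CPM there, at 54.8, 41.7 and 76.5 CPM in the SOM and at 158, 134 and 74.5 CPM in the VIP libraries. The Nkx2.1 values lay below the other 6, and the VIP mean was 6.28-fold the Nkx2.1 mean (log2 -2.65 ± 0.95 SE, Nkx2.1 minus VIP, edgeR adjusted p = 0.242). Unc13b, or Munc13-2, was at 211, 415 and 0.166 CPM in the Nkx2.1 libraries, at 34.8, 21.9 and 31.2 CPM in the SOM and at 0.245, 13.1 and 81.6 CPM in the VIP libraries. Unc13a therefore made up 9.81%, 9.03% and 99.6% of the pair per kilobase in Nkx2.1 replicates 1 to 3, so that the mean of this group describes none of its libraries. In the SOM libraries the share was 73.9% to 81.5%, and in the VIP libraries 62.2% to 99.9%. Nkx2.1 replicate 3 and VIP replicate 1 held only 2 reads of Unc13b each, below the floor of 3.

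Rims1 and Rims2, scaffolds that recruit calcium channels and vesicles, made up most of the RIM reads. Rims2 stood at 252, 271 and 30.2 CPM in the Nkx2.1, 310.4, 212 and 315 CPM in the SOM and 76.8, 88.9 and 95.8 CPM in the VIP libraries. The SOM libraries lay above the VIP libraries (log2 1.68 ± 0.75 SE, edgeR adjusted p = 0.708). Rims1 was at 77.7, 136 and 299 CPM, 47.4, 66.6 and 235 CPM and 83.8, 45.2 and 61.6 CPM in the same order, with overlap. The short forms Rims3 and Rims4 did not exceed 9.94 CPM in any library. Pclo, the scaffold piccolo, was at 109.9, 535 and 392 CPM in the Nkx2.1, 369, 626 and 469 CPM in the SOM and 148, 117 and 325 CPM in the VIP libraries, where SOM lay above VIP without overlap.

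Rab3 proteins are the vesicle GTPases that bind RIM. Rab3a, the main brain form, stood at 38.0, 56.2 and 348 CPM in the Nkx2.1, 561, 609.6 and 307 CPM in the SOM and 483, 513 and 695 CPM in the VIP libraries. The Nkx2.1 and VIP libraries did not overlap, at log2 -1.93 ± 0.76 (SE, edgeR adjusted p = 0.280). Without Nkx2.1 replicate 3, the highest of its group, the edgeR adjusted p of Rab3a was 0.0346 at log2 -3.58, and over the alternatives it ranged from 0.0346 to 0.552. Rab3c was at 683, 562 and 190.0 CPM, 419, 499 and 438 CPM and 284, 324 and 253 CPM in the Nkx2.1, SOM and VIP libraries, and SOM lay above VIP without overlap. Rab3a made up 14.7%, 29.9% and 90.7% of the 3 tested isoforms per kilobase in the Nkx2.1 libraries, and 58.5% to 85.4% in all SOM and VIP libraries.

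Synapsins tether vesicles in the reserve pool. Syn2 stood at 529.6, 410.2 and 327 CPM in the Nkx2.1, 327, 291 and 105 CPM in the SOM and 68.3, 329.8 and 321 CPM in the VIP libraries. Its lowest Nkx2.1 library lay just above the highest SOM library, at log2 0.81 ± 0.65 (SE, edgeR adjusted p = 0.793). Syn3, which is most abundant in young neurons, was at 679.7, 289 and 299 CPM, 209, 369 and 429.7 CPM and 79.5, 325 and 95.7 CPM in the same order and overlapped between all groups.

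**Figure D3:**
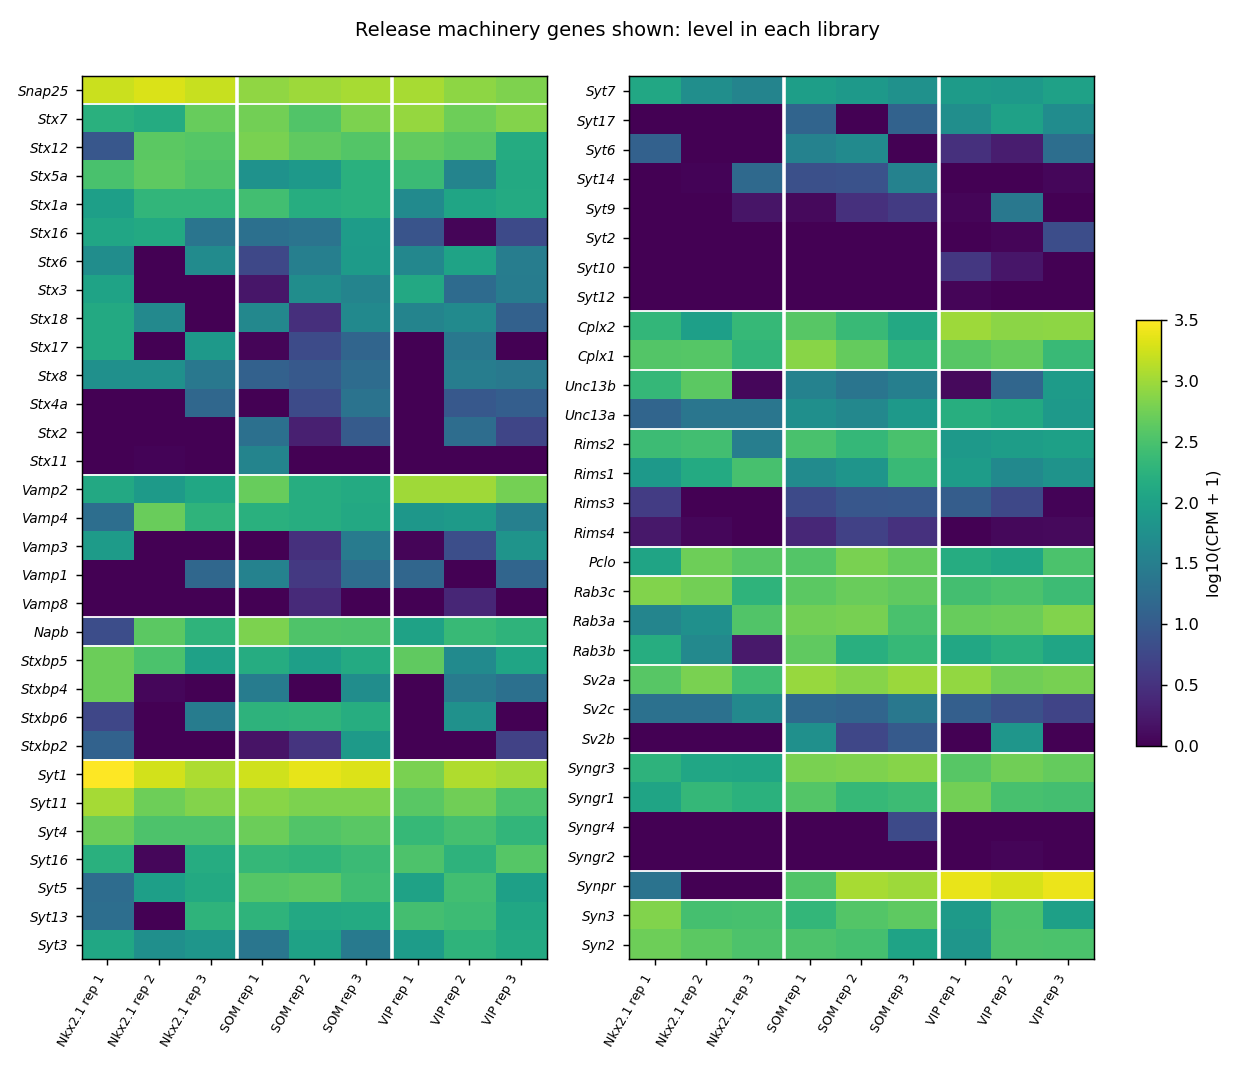
Levels as log10(CPM + 1), on a colour scale, of release genes with a read in any of the 9 libraries, grouped by family, each cell 1 gene in 1 library. Stx2, Sv2b and Syt17 are at 0 in the 3 Nkx2.1 libraries. Of the 56 tested genes, 7, 20 and 13 are at 3 reads or fewer in Nkx2.1 replicates 1 to 3. In replicates 1 to 3 of the other lines these are 4, 2 and 1 for SOM and 13, 5 and 7 for VIP. The share over all genes tested was not computed.

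Per kilobase, the leading genes differed in order between lines. Snap25 led in the Nkx2.1 libraries at 260 ± 29.7 CPM per kilobase (SD, n = 3), followed by Syt1 at 245 ± 121, a difference well inside the spread. In the SOM libraries Syngr3 led at 325 ± 25.7 CPM per kilobase, ahead of Syt1 at 249.7 ± 34.6. In the VIP libraries Rab3a, at 253 ± 51.6 CPM per kilobase, and Synpr, at 242 ± 30.0, did not differ beyond their spread. The mean was highest in the Nkx2.1 group for 17 of the 56 tested genes, in SOM for 23 and in VIP for 16. The same split over all genes tested was not computed, so nothing is read from these counts.

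Set against SOM, the Nkx2.1 libraries held more Snap25, Stx5a, Stx8 and Syn2 and less Syngr3, Synpr, Stxbp6 and Sv2b, without overlap between the libraries and short of edgeR's threshold. Of the 56 fitted differences 37 were below 0. The median log2 difference was -0.60 for these genes and -0.0075 over all genes tested. The libraries of the 2 lines did not overlap for 19 members, 4 of them higher in Nkx2.1 (5.90% of all genes tested) and 15 lower (14.0%). At an unadjusted edgeR p under 0.05 there were 2 higher (2.92% of all genes) and 9 lower (8.38%). DESeq2 called no member higher (1.68% of all genes) and 4 lower (5.48%), which were Stx2, Sv2b, Syngr3 and Syt17. Of these, Stx2, Sv2b and Syt17 had no read in any Nkx2.1 library and entered the tests only through reads of the other lines. SOM replicate 2 had no read of Syt17 either.

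Set against VIP, the Nkx2.1 libraries held more Snap25, Stx5a, Stx16 and Sv2c and less Vamp2, Synpr, Syt17 and Unc13a, again without overlap and short of the threshold. The median log2 difference was -0.29, against 0.0028 over all genes. No overlap was seen for 5 members higher in Nkx2.1 (7.31% of all genes) and 11 lower (12.8%). At an unadjusted edgeR p under 0.05 there were 4 higher (5.73% of all genes) and 11 lower (9.43%). DESeq2 called 2 members higher (4.31% of all genes), Snap25 and Stx16, and 7 lower (7.46%), Cplx2, Stx2, Sv2b, Syngr3, Syt17, Unc13a and Vamp2. Stx2, Sv2b and Syt17 had no read in any Nkx2.1 library and entered the tests only through reads of the other lines. VIP replicate 1 had no read of Stx2, and VIP replicates 1 and 3 had none of Sv2b, so for both genes the libraries overlapped.

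Between SOM and VIP, the SOM libraries held more Rims2, Stxbp6, Stx16 and Syt14 and less Cplx2, Vamp2, Synpr and Syt17, without overlap and short of the threshold. The median log2 difference was 0.38, against -0.0037 over all genes. The libraries did not overlap for 15 members higher in SOM (10.9% of all genes) and 4 lower (9.0%), which were Cplx2, Synpr, Syt17 and Vamp2. At an unadjusted edgeR p under 0.05 there were 3 higher (4.63% of all genes) and 2 lower (2.36%). DESeq2 called no member higher (2.29% of all genes) and 1 lower (1.27%), Cplx2. For any difference among the lines the unadjusted edgeR p was under 0.05 for 8 members (11.7% of all genes), and DESeq2 called 5, Cplx2, Syngr3, Syt17, Unc13a and Vamp2 (6.43%). Each pair of comparisons shares the 3 libraries of a line.

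For some members the libraries of 1 line lay outside those of both other lines, listed here with the share over all genes tested. Snap25 and Stx5a lay above in Nkx2.1 (3.31% of all genes), and those below (5.96%) included Syngr1, Syngr3, Synpr, Syt16, Unc13a and Vamp2. In SOM, Rims4, Stxbp6 and Syngr3 lay above (3.45%) and none below (0.792%). In VIP, Cplx2, Synpr, Syt17 and Vamp2 lay above (4.71%) and Stx16, Sv2c and Syt4 below (2.58%). These lists follow from the levels in each library and carry no test of their own. Rims4 was low throughout, at 1.49, 3.70 and 2.17 CPM in the SOM libraries and at most 0.681 CPM in the others. Syt16 stood at 166, 0.169 and 146 CPM in the Nkx2.1, 212, 195 and 239 CPM in the SOM and 337, 185 and 371 CPM in the VIP libraries.

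**Figure D4:**
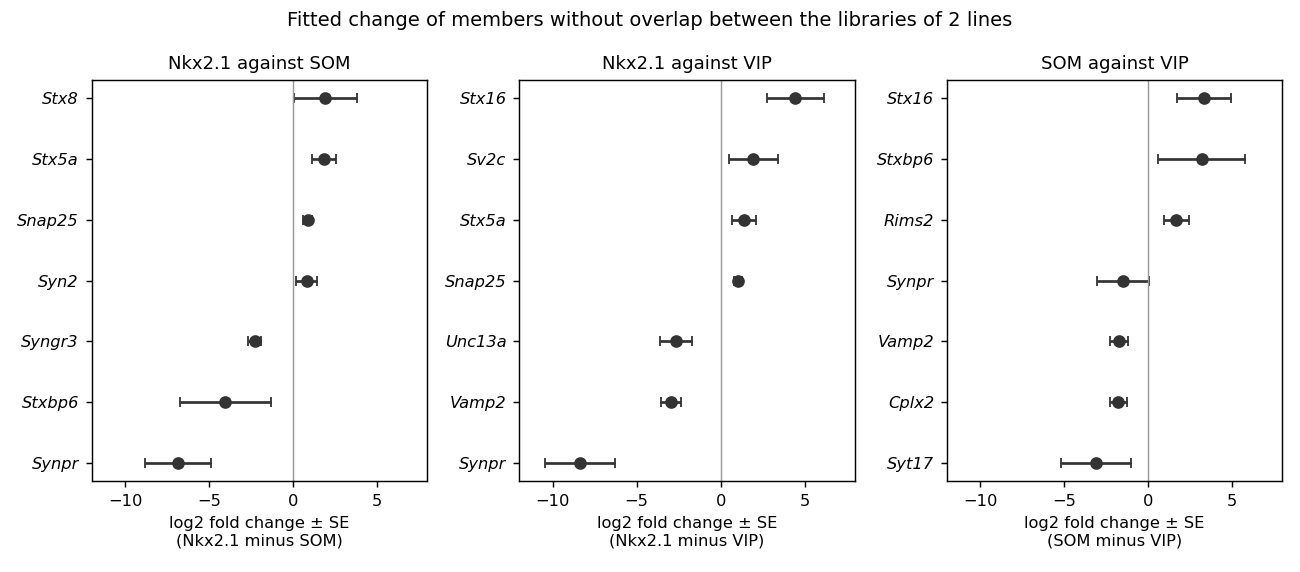
Fitted edgeR log2 differences with standard errors for the non-overlapping members with the widest differences in each comparison, leaving out members with 3 reads or fewer in a group. Synpr has the largest differences of Nkx2.1 from both other lines, -6.87 and -8.38, with standard errors of 1.97 and 2.1.

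Spread within a line was widest in Nkx2.1. The median coefficient of variation of the members was 0.726 in the Nkx2.1, 0.352 in the SOM and 0.462 in the VIP libraries, against 1.02, 0.596 and 0.805 over all genes. In the Nkx2.1 group 7 of 37 members that reached 100 CPM in a library were at 3 reads or fewer in another: Stx17, Stx18, Stx3, Stxbp4, Syt13, Syt16 and Unc13b. Stxbp4, for example, was at 518, 0.169 and 0 CPM in Nkx2.1 replicates 1 to 3. The same on-off pattern was shown by 25.0% of all genes in that group. It was shown by 0 of 32 members in SOM (1.59% of all genes) and 0 of 33 in VIP (6.25%). Genes with a read numbered 8180 to 11490 per library, and the part of detection in these results was not tested.

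The 17 members left out of the tests fall into 2 kinds. For 7, the reads were too few or in too few libraries: Stx11 held 345 reads in SOM replicate 1 and 1 read elsewhere, and Syt2, Syt10, Syt12, Syngr2, Syngr4 and Vamp8 held from 1 to 70 reads in all. The other 10 had no read in any library: Bsn, Cplx3, Cplx4, Rab3d, Stx19, Syt15, Syt8, Unc13c, Vamp5 and Vamp7. Of these, Bsn (bassoon, a giant active zone scaffold), Cplx3, Rab3d and Unc13c lie on the minus strand of chromosome 9 (GRCm38), within 461 protein-coding genes in a row on that strand without a read, from 21294275 to 124476898. On the plus strand of the same stretch, 355 of 515 protein-coding genes, 68.9%, had reads. Over the genome the median length of such a run was 1 gene. The zeros of these 4 genes are therefore given as missing values, and whether they were expressed is not known from these counts. Syp and Syn1, which lie on chromosome X and are not among the 73, also had no read, in runs of 62 and 68 genes on their strands. The level of synaptophysin and synapsin 1 is thus unknown here, and shares within those families leave them out.

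Of 56 further genes of the vesicle cycle listed for comparison, such as clathrin, dynamin, transporter and proton pump genes, 48 were tested and none passed edgeR's threshold in any comparison. Their median log2 difference was -0.38 for Nkx2.1 against SOM, -0.0062 for Nkx2.1 against VIP and -0.11 for SOM against VIP. At an unadjusted edgeR p under 0.05 there were 2 higher (2.92% of all genes) and 3 lower (8.38%) for Nkx2.1 against SOM. For Nkx2.1 against VIP there were 2 (5.73%) and 6 (9.43%), and for SOM against VIP 3 (4.63%) and 4 (2.36%). DESeq2 called Cadps2 higher (1.68% of all genes) and Slc32a1 lower (5.48%) for Nkx2.1 against SOM. It called Itsn1 higher (4.31%) and Slc32a1, Clta and Sncb lower (7.46%) for Nkx2.1 against VIP, and Cadps2 lower (1.27%) for SOM against VIP. The smallest adjusted p was that of Clta, a clathrin light chain, in Nkx2.1 against VIP (edgeR adjusted p = 0.133). Clta stood at 2.27, 19.4 and 36.3 CPM in the Nkx2.1, 120.5, 90.4 and 48.4 CPM in the SOM and 439, 334 and 313 CPM in the VIP libraries, the same order of lines as Vamp2. Slc32a1, the vesicular GABA transporter that fills inhibitory vesicles, was at 0.908, 4.32 and 8.36 CPM in the Nkx2.1, 74.6, 44.7 and 15.2 CPM in the SOM and 54.0, 65.6 and 77.5 CPM in the VIP libraries.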

How the data were processed

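RNA-seq was measured in 9 libraries, 3 per line, grouped by the genotype in their labels. The authors deposited raw read counts per gene symbol for each library. The submitters' processing notes name TopHat2 2.0.9, DESeq2 and mm10, without their roles. The counting program and its strand setting were not given in the sources used here, so reads of a gene and of one overlapping it on the other strand may not be separable. The 5 summary entries that name no gene held 83.6% to 85.2% of each table and entered neither library sizes nor tests, which left 6484488 to 12465997 reads in genes per library.

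The quasi-likelihood test of edgeR 4.0.16 (R 4.3.3) was fitted to all 9 libraries together, with the line as the only term, TMM scaling, filterByExpr by group at its minimum count of 10, and Benjamini-Hochberg adjustment over the 10728 genes left; an adjusted p under 0.05 was the threshold. There were 6 residual degrees of freedom, and the common biological coefficient of variation was 1.40. SE is the log2 value over the root of its F statistic, folds are ratios of mean CPM, and a bound against a line with no read sets the pooled reads of the other line against 3 reads. Where a line had 1 to 3 reads, the ratio of pooled reads has a 95% exact counting interval. Both cover counting error alone, as reads with no stated molecular identifiers are not independent molecules. Exon lengths and positions came from GENCODE release M21 (GRCm38), in which 72 of the 73 symbols were found.

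Named genes were the members past the threshold, up to 4 per comparison and direction with the largest log2 difference among those at 10 CPM or more without overlap between lines, the core isoforms, and members at 0 reads; further members were picked after their values were seen, to describe each family. Some members are not reported here by name. The members and lists were chosen with earlier results of these data known. Alternatives were RLE size factors, DESeq2 1.42.0, no filter, a filter of 10 CPM in 3 libraries, the replicate number as a term, the 6 compared libraries alone and leaving out each library; leaving out libraries for the bounds and counting ratios was added after seeing the data.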

Additional observations from a re-analysis of the deposited data

How the results depend on the processing

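The common coefficient of variation between libraries of a line was 1.40, and levels near 3 reads carry a large counting error. The count of members called, 0 in each edgeR comparison, was 4 under DESeq2 for Nkx2.1 against SOM, 9 for Nkx2.1 against VIP, 1 for SOM against VIP and 5 for any difference, and the cause was not tested. The DESeq2 calls for Nkx2.1 against SOM and against VIP included Stx2, Sv2b and Syt17, which had no read in any Nkx2.1 library. Leaving out 1 library gave 0 to 2 calls for Nkx2.1 against SOM (2, Syngr3 and Synpr, without Nkx2.1 replicate 1), 0 to 1 for Nkx2.1 against VIP (1 each, Synpr without Nkx2.1 replicate 1, Rab3a without Nkx2.1 replicate 3 and Vamp2 without SOM replicate 1), 0 to 1 for any difference (1, Synpr without Nkx2.1 replicate 1 and Vamp2 without SOM replicate 1) and 0 for SOM against VIP. Without Nkx2.1 replicate 1, Synpr had no Nkx2.1 read left and entered the tests only through reads of the other lines. RLE size factors, no filter, the stricter filter and the 6 compared libraries alone gave 0 in each comparison they were run for.

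Same-numbered libraries deviated together with correlations of only -0.041 to 0.067, and 3 of 18 checks found a library closest to its own number, so the numbers were not taken as pairs. The fit with the replicate block called 0 members in each comparison and, over all genes, 4 in place of 10 for Nkx2.1 against SOM, 11 in place of 33 for Nkx2.1 against VIP, 4 in place of 8 for SOM against VIP and 14 in place of 36 for any difference. Under the block, Syn2 in SOM against VIP was at log2 -0.045 in place of 0.0067.

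Of 939 alternative values for 63 gene results, 883 kept direction and side of the threshold, 9 kept direction where DESeq2 gave no adjusted p, 15 newly passed it and 32, over 10 results, changed sign, each from a value within 1 log2 unit of 0. Syt1 in Nkx2.1 against SOM was at 0.047 with RLE, 0.047 with DESeq2 and 0.033 without a filter, Sv2b in SOM against VIP at -0.039 with RLE and -0.041 with DESeq2, and Syn2 in SOM against VIP at -0.050 with RLE, -0.050 with DESeq2, -0.016 without a filter and -0.034 with the stricter one. Leaving out 1 library, the log2 range for Nkx2.1 against SOM was -0.46 to 0.26 for Syt1, -0.33 to 0.074 for Syt4, -0.43 to 0.053 for Stx1a and -0.12 to 1.58 for Rims1. For Nkx2.1 against VIP it was -0.44 to 0.057 for Cplx1. For SOM against VIP it was -0.11 to 0.76 for Cplx1, -0.16 to 1.25 for Rims1, -0.38 to 0.055 for Rab3a, -1.73 to 10.78 for Sv2b and -0.42 to 0.37 for Syn2. Sv2b had no read in either group for Nkx2.1 against VIP without VIP replicate 2, so it has no value there. Another scaling moved the median of all genes by at most 0.065 log2.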
